A study of Mus musculus with 23 samples.

Results

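The genes described here are nuclear genes for subunits of the oxidative phosphorylation complexes, measured by RNA-seq in mouse brain. They were chosen by symbol: protein-coding genes named Nduf (a, b, c, s or v with a number), Sdha to Sdhd, Uqcr, Cox4 to Cox8 or Atp5, with a mean normalised read count of at least 10 and no "-ps" ending. The rule found 81 genes among 18848 in the table, of which 17256 reached that mean and were tested. Of 84 rows with such a symbol, 3 were left out: Cox7b2, with a mean of 5.45, the processed pseudogene Ndufb4c and the non-coding Ndufb1-ps. The 81 genes lie on 19 chromosomes, 3 of them on X. Grouped by complex, 35 were counted with complex I, 4 with complex II, 8 with complex III, 17 with complex IV and 17 with complex V. The symbol alone placed Cox7a2l, a factor that joins complexes III and IV, with complex IV. It also placed Atp5s, for coupling factor B, with complex V. Ndufa4 and its paralog Ndufa4l2 carry complex I names but were counted with complex IV, where the NDUFA4 protein is now placed.

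The libraries hold polyadenylated RNA of brain, with no region named, from C57BL/6J males aged 17 postnatal days (P17). The mice were heterozygous (HT) for a Grin2b allele that the series title names C456Y, or wild-type (WT), and received DCS or vehicle. Grin2b codes for GluN2B, a subunit of NMDA-type glutamate receptors, and DCS is the customary short form of D-cycloserine, which acts at the glycine site of those receptors. The labels give only the short form, with no dose or duration. There were 6 HT DCS, 6 HT vehicle, 5 WT DCS and 6 WT vehicle libraries. All 4 groups thus share strain, sex and age, and WT vehicle mice had neither the allele nor the drug. The neuronal marker Snap25 was read at a mean of 51475 normalised reads. Nothing in the labels ties a library to its own mouse, so p-values here measure the spread between libraries, which may be technical. The allele is a missense change in a transcript that stays readable, so the gene-level values do not check the genotype.

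Oxidative phosphorylation makes most of the ATP that neurons spend on ion pumping and synaptic transmission. Complexes I (NADH dehydrogenase) and II (succinate dehydrogenase) pass electrons through ubiquinone to complex III (cytochrome bc1) and on to complex IV (cytochrome c oxidase), and complex V (ATP synthase) uses the proton gradient that I, III and IV build. A few core subunits are encoded in mitochondrial DNA, and the others, described here, are nuclear genes whose promoters are known to be bound by the factors NRF1, GABPA (an ETS factor), YY1 and the estrogen-related receptors.

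To show the motifs in place, 5 windows of 250 bases are printed. In each complex the window was taken that holds the most kinds of motif among those of the 4 factors and the cyclic AMP response element (CRE), and between windows with as many the gene with the higher level per kb was taken. That of Cox7a1, a muscle-type isoform gene of low level in brain, is set beside them as a window with no match. It was picked after its values were seen. A lack of matches was not particular to genes of low level. Atp5b, Cox5a, Cox5b, Cox7c, Cox7a2 and Ndufa4, all of high level, also had no match for the 4 factors or the CRE. Whether motifs go with level was not tested. The sequences are from RefSeq, build GRCm38.p6, and end at the base before the annotated start, which is counted as -1. Capitals mark GCGCA and GCGC with any base between them (NRF1), CCGGAAG (ETS) and TGACGTCA (CRE) on either strand, and no capital runs overlap. The windows are Ndufa11 at chr17:56717512-56717761 (plus strand), Sdhd at chr9:50603850-50604099 (minus), Uqcrh at chr4:116075071-116075320 (minus), Cox6a1 at chr5:115348959-115349208 (minus), Atp5h at chr11:115419920-115420169 (minus) and Cox7a1 at chr7:30183921-30184170 (plus).
Ndufa11: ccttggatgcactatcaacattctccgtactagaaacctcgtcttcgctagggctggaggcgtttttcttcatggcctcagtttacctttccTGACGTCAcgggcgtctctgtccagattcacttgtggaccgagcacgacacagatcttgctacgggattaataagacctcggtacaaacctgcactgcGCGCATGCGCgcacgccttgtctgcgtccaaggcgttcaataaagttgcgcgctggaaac
Sdhd: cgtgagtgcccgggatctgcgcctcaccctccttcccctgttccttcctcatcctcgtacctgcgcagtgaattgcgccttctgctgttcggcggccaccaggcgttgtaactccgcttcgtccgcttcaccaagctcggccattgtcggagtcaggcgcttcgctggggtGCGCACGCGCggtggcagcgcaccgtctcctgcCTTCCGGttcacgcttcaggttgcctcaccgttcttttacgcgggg
Uqcrh: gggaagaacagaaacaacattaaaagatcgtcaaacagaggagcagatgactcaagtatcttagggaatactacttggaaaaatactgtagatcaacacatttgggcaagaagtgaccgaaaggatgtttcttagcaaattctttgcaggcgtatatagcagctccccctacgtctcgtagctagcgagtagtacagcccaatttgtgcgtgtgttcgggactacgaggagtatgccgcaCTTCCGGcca
Cox6a1: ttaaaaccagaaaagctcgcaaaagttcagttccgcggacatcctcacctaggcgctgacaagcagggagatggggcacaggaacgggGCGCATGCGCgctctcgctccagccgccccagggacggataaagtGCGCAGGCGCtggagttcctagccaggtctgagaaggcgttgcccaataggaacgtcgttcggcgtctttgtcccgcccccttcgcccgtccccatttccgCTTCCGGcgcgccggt
Atp5h: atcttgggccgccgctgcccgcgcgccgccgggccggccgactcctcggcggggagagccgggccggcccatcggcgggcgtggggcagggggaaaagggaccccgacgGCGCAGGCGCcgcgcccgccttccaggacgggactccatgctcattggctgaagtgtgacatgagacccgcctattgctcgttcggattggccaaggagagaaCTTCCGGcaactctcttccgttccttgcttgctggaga
Cox7a1: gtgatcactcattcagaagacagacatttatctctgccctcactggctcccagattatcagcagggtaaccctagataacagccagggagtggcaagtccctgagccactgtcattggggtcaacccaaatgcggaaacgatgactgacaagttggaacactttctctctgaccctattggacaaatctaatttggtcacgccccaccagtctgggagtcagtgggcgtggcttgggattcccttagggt

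The NRF1 letters stand at -60 to -51 in Ndufa11, at -79 to -70 in Sdhd, and in Cox6a1 at -162 to -153 and again at -117 to -108. In Atp5h they stand at -141 to -132. The ETS letters lie near the start in Uqcrh (-10 to -4) and Cox6a1 (-16 to -10), and somewhat farther away in Atp5h (-38 to -32) and Sdhd (-46 to -40), each as the reverse complement CTTCCGG. The Ndufa11 window also holds a CRE, at -158 to -151. Over windows that run from 250 bases before the start to 50 bases after it, 64 of the 81 genes matched with 69 windows, and 12385 of the tested genes with 15851. The NRF1 letters were in 26.1% of the windows of these genes and in 8.48% of all windows, and the ETS letters in 23.2% and 14.8%. AAGATGGCG (YY1) was in 10.1% and 2.46%, TCAAGGTCA (estrogen-related receptor) in 2.90% and 0.315%, and the CRE in 5.80% and 2.80%. General promoter letters were nearer the background, with CCAAT in 42.0% and 37.3% and TATAAA in 8.70% and 7.65%. The median GC content was 57.3% in the windows of these genes and 60.0% in all. The number of CG pairs over that expected from the base content had a median of 0.795 in these windows and 0.714 in all. The NRF1, ETS, YY1 and CRE letters each hold a CG pair. These are counts of letters, with no test, and say nothing of binding in these brains.

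The 81 genes made up between 0.940% and 1.05% of the summed values of a library. On a per-length scale, the mean normalised read count over the 23 libraries per kb of transcript, their median was 3311, against 207 for all genes tested, and 77 of the 81 lay above that second value. Complexes III, IV and V had medians of 4959, 5908 and 5601 per kb. Complexes I and II had lower medians, of 2501 and 2559 per kb.

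**Figure D1:**
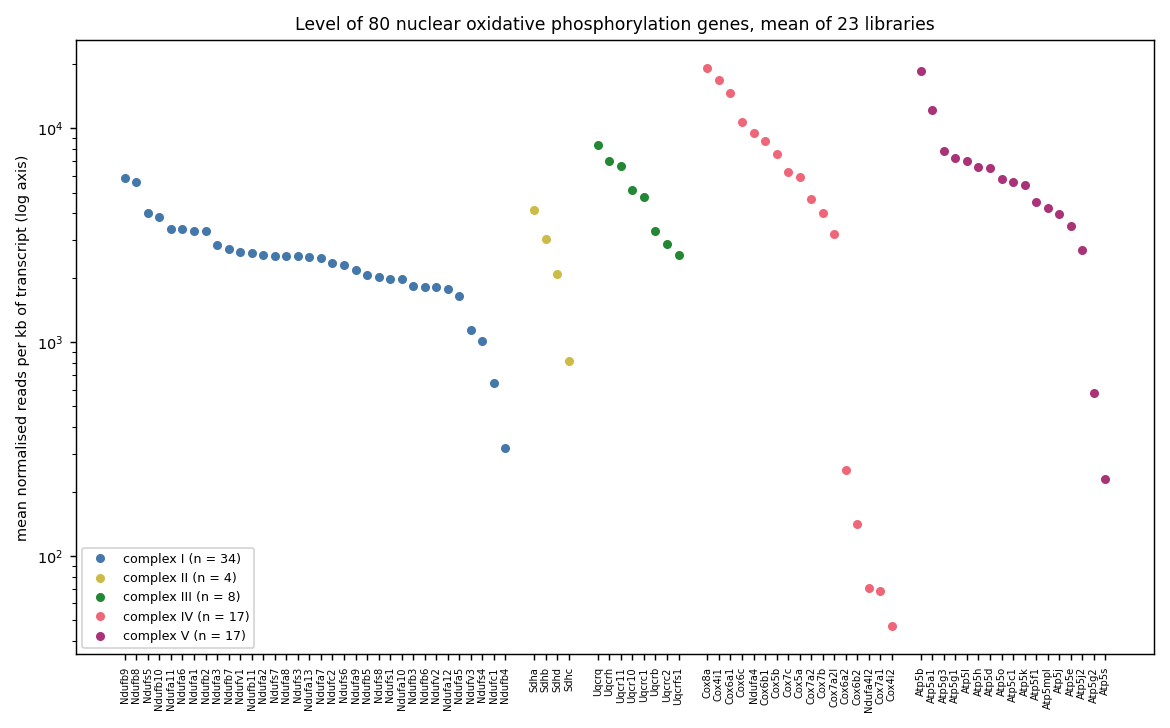
Level of 80 of the 81 genes, the mean normalised read count over 23 libraries per kb of transcript on a log axis, grouped by complex and sorted within it. Most complex I genes lie close together, while complex IV holds both the highest gene, Cox8a (19066 per kb), and the lowest, Cox4i2 (46.8 per kb).

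Within complex I the highest level per kb was that of Ndufb9, a membrane-arm accessory subunit, at 5860. The lowest was Ndufb4, at 319 per kb, but this value is uncertain, because the pseudogene Ndufb4c is identical to it over 390 bases and carried a mean of 1240 normalised reads beside 310 for Ndufb4. The sum of the pair was 1550, with a coefficient of variation over libraries of 5.32%, against 11.6% for Ndufb4 alone. Within complex II, Sdha, the flavoprotein that oxidises succinate, had 4139 per kb and Sdhc, a membrane anchor, 820. Within complex III the small subunit gene Uqcrq was highest at 8389 and Uqcrfs1, the Rieske iron-sulphur protein, lowest at 2559 per kb.

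In complex V, Atp5b, the catalytic beta subunit, had 18541 per kb and the largest mean normalised read count of all 81 genes, 35524. Atp5s, for coupling factor B, was lowest at 228 per kb. The 3 genes for the c subunit of the membrane ring code for the same mature protein with different import sequences, and were read at unlike levels. In normalised read counts within a library, Atp5g1 was 71.7% to 84.6% of Atp5g3 and Atp5g2 3.55% to 7.05%. The level of Atp5g2 is uncertain too: the predicted gene Gm10175 is identical to it over 441 bases and had a mean of 1909 beside 255 for Atp5g2. Their sum varied by 5.86% over libraries and Atp5g2 alone by 18.2%. In a search of all annotated transcripts, 22 of the 81 genes had a copy of at least 95% identity. For 5 of them a copy was also in the table, and only for Ndufb4 and Atp5g2 did the copy exceed 10% of the gene's own mean.

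Complex IV contains the tissue isoforms. Cox4i1, Cox6a1, Cox6b1, Cox7a2 and Ndufa4 are the widely expressed forms, and their partners were read at low levels in all 23 libraries. Cox6a2, the heart and muscle form that in mouse brain is known from fast-spiking interneurons, stood at 1.83% to 2.44% of Cox6a1. Cox6b2, known from testis, stood at 0.881% to 1.72% of Cox6b1, and Cox7a1, a heart and muscle form, at 0.549% to 1.32% of Cox7a2. Ndufa4l2 and Cox4i2, which in mouse brain are known from pericytes, stood at 0.671% to 1.47% of Ndufa4 and 0.154% to 0.467% of Cox4i1. By contrast, Cox7a2l, a factor that joins complexes III and IV, stood at 105% to 123% of Cox7a2. The summed level of 3 muscle markers (Myh7, Tnnt2 and Acta1) was 446 to 586 in HT DCS, 477 to 594 in HT vehicle, 457 to 690 in WT DCS and 479 to 660 normalised reads in WT vehicle. None of the 3 was at 0 in any library, and the muscle marker Myh6 had a mean of 7.66. The 5 pericyte markers summed to 4701 to 6094 in HT DCS, 4727 to 6169 in HT vehicle, 4670 to 5705 in WT DCS and 4492 to 5410 in WT vehicle. The part of such cells in the isoform levels was not tested, and in bulk tissue fewer cells of a type and less RNA per cell cannot be told apart.

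Isoform ratios did not pass a test between groups. For 8 pairs and 4 comparisons, an exact two-sided permutation test over libraries of the log2 ratio gave 0 of 32 past an adjusted p of 0.05, and none at an unadjusted p under it. The smallest exact permutation p was 0.0758, for Ndufa4l2 over Ndufa4 in HT DCS against WT DCS, with a log2 difference of 0.27 (adjusted p = 0.745).

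Before the group comparisons, some libraries stand apart in these genes. For each gene the deviation from its mean over the 23 libraries was taken on the scale of log2(value + 1). In HT DCS replicate 5, 75 of the 81 genes lay below their mean, and the average over all 81 was -0.13. In HT DCS replicate 6, 72 lay below, and the average over all 81 was -0.085. In WT DCS replicate 1, by contrast, only Ndufs1, Uqcrc2, Atp5s and Cox5b lay below, and the average was 0.11, and in HT vehicle replicate 6, 12 lay below, with an average of 0.075. Of all genes tested, between 48.6% and 49.9% lay below their mean in any library. In HT DCS replicate 5 the genes above their mean were Cox6c, Ndufs6, Ndufa5, Atp5b, Cox8a and Ndufa4l2.

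**Figure D2:**
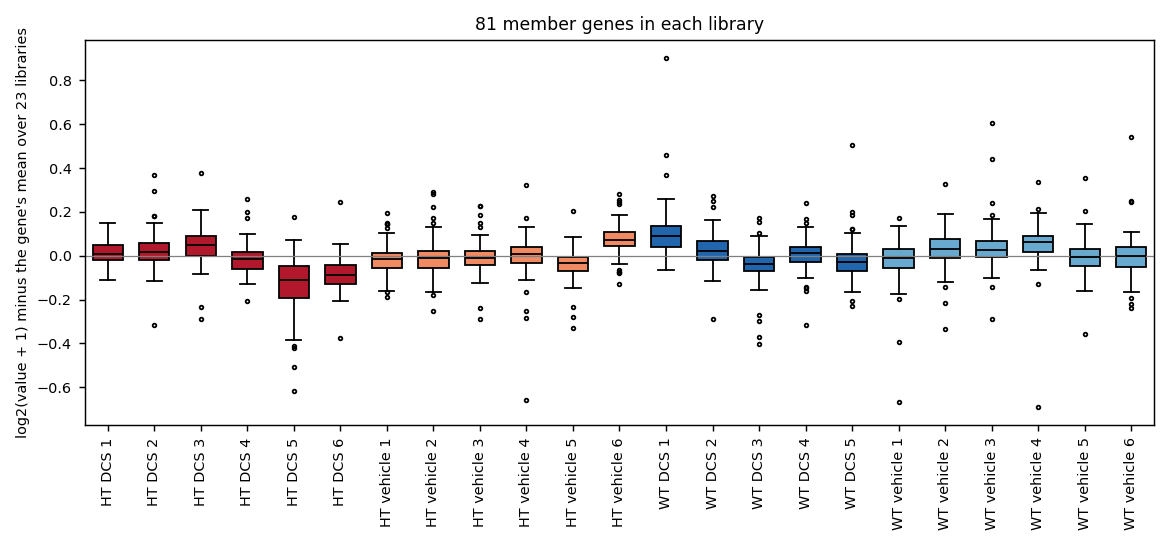
Deviation of each of the 81 genes from its own mean over 23 libraries, on the log2(value + 1) scale, as 1 box per library (line, median; box, quartiles; whiskers, 1.5 times the box height; points, genes beyond). HT DCS replicates 5 and 6 sit below 0 and WT DCS replicate 1 and HT vehicle replicate 6 above it.

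The subunits differed in how far they lay below their means in HT DCS replicate 5, and less so in HT DCS replicate 6. In HT DCS replicate 5 the genes for the alpha, beta and gamma subunits of ATP synthase averaged -0.0024, while the other 14 complex V genes averaged -0.19. The nuclear core subunits of complex I averaged -0.086 there and its 28 accessory subunits -0.13. In HT DCS replicate 6 the alpha, beta and gamma genes averaged -0.041 and the other complex V genes -0.055, and the core and accessory subunits of complex I -0.077 and -0.10. The 54 genes under 1000 bases averaged -0.17 in HT DCS replicate 5 and the 27 longer ones -0.065. Other protein-coding genes with a mean of at least 1000 showed a similar split in that library, with -0.14 for 233 short and 0.00053 for 6154 long ones. In WT DCS replicate 1 the short and long genes of oxidative phosphorylation averaged 0.13 and 0.064, and the other short genes 0.078. HT DCS replicate 5 also had the lowest estimated depth, 25.5 M reads, where the other libraries reached up to 37.5 M.

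**Figure D3:**
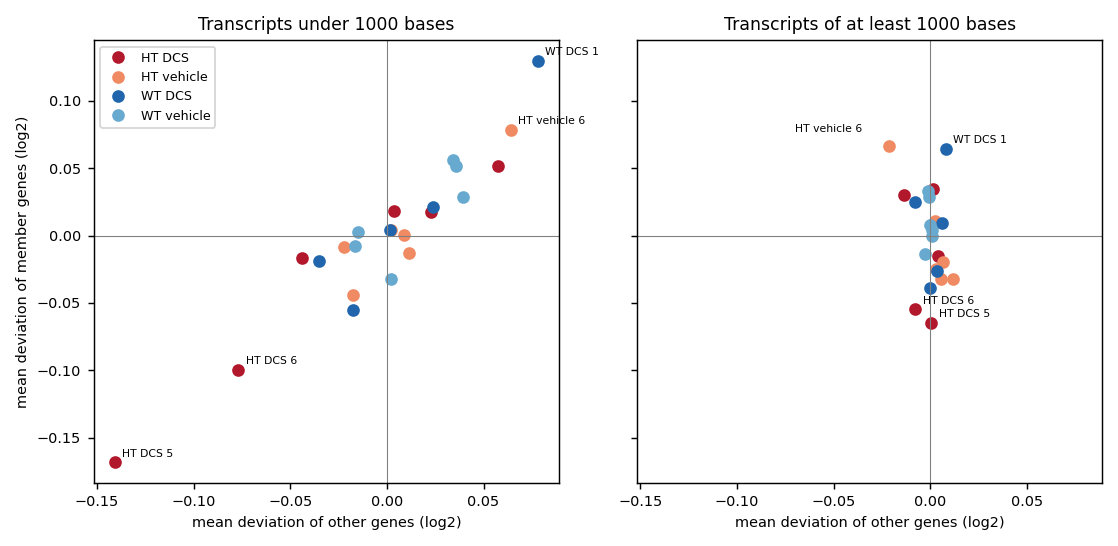
Mean deviation of the genes of oxidative phosphorylation (vertical) against that of other protein-coding genes with a mean of at least 1000 (horizontal), both log2, 1 point per library, for transcripts under 1000 bases (left) and longer ones (right). On the left the libraries spread along both axes, with HT DCS replicate 5 at -0.17 and -0.14; on the right the other genes stay near 0.

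The same libraries also differ in tissue markers. The 7 tested caudal hindbrain markers (Hox genes) summed to 30.5 and 41.0 normalised reads in HT DCS replicates 5 and 6, against 126 to 218 in the other HT DCS libraries. Their sums were 69.5 to 202 in HT vehicle, 113 to 250 in WT DCS and 117 to 264 in WT vehicle. Hoxb2 was at 0 in HT DCS replicate 5, as were Hoxa2 and Hoxd4, whose means were under 10. The 7 myelin markers summed to between 316743 and 491427 in HT DCS, lowest in replicate 6, to 382344 to 482162 in HT vehicle, 432604 to 508400 in WT DCS and 443952 to 508412 in WT vehicle. The 13 mitochondrially encoded mRNAs deviated by -0.21 and -0.19 in HT DCS replicates 5 and 6 and by 0.24 in WT DCS replicate 1. This was not particular to those libraries: HT vehicle replicate 1 was at -0.20 and WT vehicle replicate 3 at 0.20. In these the 81 genes averaged only -0.016 and 0.037. The 5 microglia markers summed to 3870 in HT DCS replicate 5, against 2117 to 3272 in the other HT DCS libraries, and the 7 cerebellum markers to 25071, against 30495 to 33184. Over the other groups those sums ran between 1846 and 3784 for microglia and between 30841 and 34535 for cerebellum. The 6 striatum markers were lowest in HT DCS replicate 6, at 12363, and the other HT DCS libraries had 13745 to 14623. Their sums were 13322 to 14714 in HT vehicle, 13755 to 16391 in WT DCS, where replicate 1 was highest, and 14574 to 17493 in WT vehicle. The part of transcript length, depth or dissected tissue in the levels of the 81 genes was not tested.

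Between HT vehicle and WT vehicle, the comparison of genotype without the drug, levels were close. Of the 81 genes, 0 passed an adjusted p of 0.05 in limma, as did 0% of all genes tested. At an unadjusted p under 0.05 there were 3 of 81, against 729 of 17256 (4.22%). The median log2 difference was -0.012, with 55 genes lower in HT vehicle (50.3% of all genes were lower) and 26 higher. The 95% interval lay within 0.25 log2 units of 0 for 74 of the 81 genes. Among the tissue markers, 5 of 6 for striatum were lower in HT vehicle, 4 of them at an unadjusted p under 0.05 (0 passed in limma), with a median of -0.13. The 7 myelin markers were all lower, with a median of -0.098 and none at that level. All 5 pericyte and all 5 endothelium markers were higher, with medians of 0.18 and 0.10, and 2 and 1 at that level. For choroid plexus 4 of 5 were higher, 3 at that level, with a median of 0.28. All 7 for caudal hindbrain were lower, 1 at that level, with a median of -0.63. The neuron, astrocyte, microglia, muscle, cerebellum and blood lists had none at that level. No marker passed in limma, and their part in the 81 genes was not tested.

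The smallest p was that of Sdhc (ENSMUSG00000058076, GRCm38 chromosome 1, 171127165 to 171150603, minus strand), which anchors succinate dehydrogenase in the inner membrane. Its normalised read counts in HT vehicle were 2466 at the lowest, 2510 at the median and 2749 at the highest, and in WT vehicle 2663, 2728 and 2894. HT vehicle replicate 6, the highest of its group, reached into the WT vehicle range, and the other 5 lay below all WT vehicle libraries. The means were 2547 ± 103 (SD, n = 6) in HT vehicle and 2748 ± 89.5 (n = 6) in WT vehicle. The log2 difference was -0.11 ± 0.035 (SE; limma adjusted p = 0.999).

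Among the other complexes, Uqcrc2, a core protein of complex III, had 5303 ± 345 in HT vehicle and 5627 ± 67.7 in WT vehicle (SD, n = 6 each), a log2 difference of -0.088 (limma adjusted p = 0.999). Ndufs1, the largest core iron-sulphur subunit of complex I, had 5043 ± 129 in HT vehicle and 5211 ± 118 in WT vehicle. In the other direction, Atp5b had 35614 at the lowest, 36252 at the median and 39172 at the highest in HT vehicle, against 33796, 34584 and 37678 in WT vehicle. All 6 HT vehicle libraries lay above the WT vehicle mean, and the groups overlapped through WT vehicle replicate 6. The log2 difference was 0.082 ± 0.034 (SE; limma adjusted p = 0.999). Ndufv1 and Ndufv3, which belong to the NADH-oxidising flavoprotein part of complex I, differed by 0.044 and 0.045. Without WT vehicle replicate 2 the difference of Ndufv1 was 0.023. That of Ndufv3 was 0.015 without HT vehicle replicate 6 and 0.070 without HT vehicle replicate 5.

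The genotypes were also compared under the drug. In HT DCS against WT DCS, 68 of the 81 genes had a lower value and 13 a higher one, where 50.2% of all genes were lower, and the median log2 difference was -0.034 (-0.00032 for all genes). No gene of the 81 passed (limma, 0% of all genes tested called), and 4 of 81 had an unadjusted p under 0.05, all lower, where 4.13% of all genes did so. Genes of complexes II and III were lower throughout, 4 of 4 and 8 of 8, with 30 of 35 lower in complex I, 13 of 17 in complex IV and 13 of 17 in complex V. The counts changed without the libraries that stand apart. Those libraries were picked for their levels of these same 81 genes, here and below. Leaving out the lowest HT DCS or the highest WT DCS library was thus likely beforehand to raise the difference. Without HT DCS replicate 5, 55 genes were lower, without HT DCS replicate 6, 59, and without WT DCS replicate 1, 52. Without both HT DCS replicates 5 and 6, 35 were lower and 46 higher, with a median of 0.0081, and without WT DCS replicate 1 as well, 22 were lower and 59 higher, with a median of 0.025. The tissue markers moved in the same comparison: all 7 for myelin and all 6 for striatum were lower in HT DCS, with medians of -0.24 and -0.13. At an unadjusted p under 0.05 there were 7 and 3 of them. All 7 for caudal hindbrain and 6 of 7 for cerebellum were lower, 2 of each at that level, with medians of -0.60 and -0.053. All 5 for choroid plexus were lower and all 5 for endothelium higher, 1 of each at that level. No marker passed in limma, and their part in the levels of the 81 genes was not tested.

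Atp5e, the epsilon subunit of the central stalk of ATP synthase, had the smallest p. Its normalised read counts were 1023 at the lowest, 1385 at the median and 1448 at the highest in HT DCS, against 1703, 1418, 1564, 1358 and 1562 in WT DCS. HT DCS replicate 5, at 1023, was far below the others, whose lowest was 1312, and the groups overlapped. HT DCS averaged 1332 ± 160 (SD, n = 6) against 1521 ± 136 (n = 5) for WT DCS, a log2 difference of -0.20 ± 0.083 (SE; limma adjusted p = 0.641). Without HT DCS replicate 5 the difference was -0.12, without replicates 5 and 6 it was -0.10, and without WT DCS replicate 1 as well it was -0.059.

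Uqcr10, a small complex III subunit, had 1660 at the lowest, 2144 at the median and 2280 at the highest in HT DCS, against 2440, 2197, 2160, 2089 and 2549 in WT DCS. Here too HT DCS replicate 5 was lowest, and the groups overlapped. The log2 difference was -0.14 ± 0.066 (SE; limma adjusted p = 0.647), and without HT DCS replicate 5 it was -0.080. Atp5j, coupling factor 6 of the peripheral stalk, had 3120 ± 153 in HT DCS (SD, n = 6) and 3295 ± 175 in WT DCS (n = 5). Its log2 difference was -0.079 and without WT DCS replicate 1 it was -0.051. Cox5b, a matrix-side subunit of complex IV, had 6656 ± 357 in HT DCS and 6374 ± 310 in WT DCS, and 5 of 6 HT DCS libraries exceeded the mean of WT DCS. Its log2 difference, 0.062, was 0.038 without HT DCS replicate 3 and 0.098 without HT DCS replicates 5 and 6. It was among the few genes that did not follow the high level of WT DCS replicate 1, where it lay below its own mean. Ndufa5, an accessory subunit of the matrix arm, and Ndufa4l2 had log2 differences of 0.064 and 0.20, with 95% intervals from -0.045 to 0.17 and from -0.11 to 0.51. The difference of Ndufa5 was 0.13 without WT DCS replicate 1 and 0.027 without WT DCS replicate 5.

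**Figure D4:**
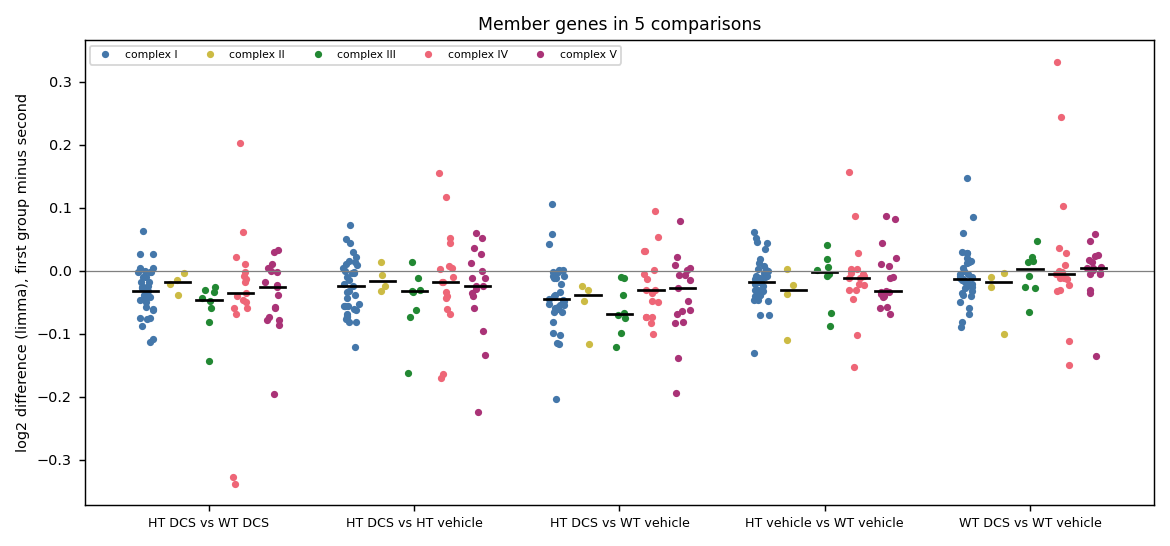
Log2 difference of each of the 81 genes in 5 comparisons, the first-named group minus the second, by complex, with a bar at the median of each complex (limma on log2(value + 1)). Most genes lie between -0.1 and 0.1 in every comparison. Among the widest are those of the low-level isoforms Cox4i2 and Cox6b2, such as -0.34 and -0.33 in HT DCS against WT DCS (-0.17 for Cox4i2 without WT DCS replicate 1). In HT DCS against HT vehicle the widest is Atp5e, at -0.22.

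The effect of DCS was taken within each genotype. In WT DCS against WT vehicle, 0 of the 81 genes passed in limma (0% of all genes tested), 1 had an unadjusted p under 0.05 (2.88% of all genes), and 50 were lower (49.7% of all) with a median log2 difference of -0.0057. Without WT DCS replicate 1, 63 were lower, with a median of -0.023. Sdhc was again the gene with the smallest p. It had 2630, 2635, 2414, 2617 and 2519 normalised reads in WT DCS, against 2663 at the lowest, 2728 at the median and 2894 at the highest in WT vehicle. All WT DCS libraries lay below all WT vehicle libraries, the only such gene of the 81 in this comparison, where 0.209% of all genes had groups that did not overlap in that direction. The log2 difference was -0.10 ± 0.037 (SE; limma adjusted p = 1.0). This comparison and that of HT vehicle share the WT vehicle libraries, in which Sdhc was highest, so the values are not independent. HT DCS libraries had 2373 at the lowest, 2534 at the median and 2673 at the highest, and the log2 difference of HT DCS from HT vehicle was -0.0062.

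The other genes named here had groups that overlapped. Ndufc2, an accessory subunit of the membrane arm, had 1567 ± 85.4 in WT DCS (SD, n = 5) and 1658 ± 66.1 in WT vehicle (n = 6). Its log2 difference was -0.082, and -0.050 without WT DCS replicate 3. Ndufa10, another membrane-arm accessory subunit, had 5128, 4338, 3606, 3904 and 4040 in WT DCS, against 3517 at the lowest, 3771 at the median and 3991 at the highest in WT vehicle. WT DCS replicate 1 was highest and the groups overlapped, with a log2 difference of 0.15 ± 0.073 (SE; limma adjusted p = 1.0) that was 0.073 without that library. Cox4i2 had 62.9, 38.9, 26.8, 35.4 and 37.8 in WT DCS, against 20.2, 31.0 and 39.3 as the lowest, median and highest of WT vehicle, and again WT DCS replicate 1 was highest. Its log2 difference was 0.33 ± 0.19 (SE; limma adjusted p = 1.0), with a 95% interval from -0.057 to 0.72. Without WT DCS replicate 1 it was 0.16, and without WT vehicle replicate 4 it was 0.22.

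In HT DCS against HT vehicle, 0 of the 81 genes passed in limma (0% of all genes tested) and 6 had an unadjusted p under 0.05, all lower (2.58% of all genes in that direction). Of the 81, 56 were lower (50.7% of all genes), with a median of -0.024, but without HT DCS replicates 5 and 6, 28 were lower and 53 higher, with a median of 0.014. The 7 markers each of myelin, cerebellum and caudal hindbrain were all lower in HT DCS, with medians of -0.14, -0.078 and -0.32. All 5 for choroid plexus were lower, with a median of -0.21. Only 1 of myelin and 1 of choroid plexus had an unadjusted p under 0.05. No marker passed in limma, and their part in the 81 genes was not tested. Atp5b had 33235 at the lowest, 34164 at the median and 36618 at the highest in HT DCS, against 35614, 36252 and 39172 in HT vehicle. All 6 HT DCS libraries lay below the HT vehicle mean, and the groups overlapped through HT DCS replicates 4 and 5, the highest of their group. The log2 difference was -0.096 ± 0.034 (SE; limma adjusted p = 0.973).

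Atp5e in HT vehicle ranged over 1346, 1563 and 1705 as its lowest, median and highest, against which HT DCS had the lower values given above. The difference was -0.22 ± 0.079 (SE; limma adjusted p = 0.973) with all libraries and -0.13 without HT DCS replicates 5 and 6. Uqcr10 had 2076 ± 229 in HT DCS and 2312 ± 104 in HT vehicle (SD, n = 6 each), a log2 difference of -0.16 that was -0.099 without HT DCS replicate 5. The other lower genes at an unadjusted p under 0.05, named after their values were seen, were Ndufa11, Ndufa4 and Cox4i1. Ndufa11 and Ndufa4 differed by -0.12 and -0.069, and without HT DCS replicate 5 by -0.055 and -0.042. Cox4i1, the regulatory subunit that binds ATP, had 11333 at the lowest, 12368 at the median and 12612 at the highest in HT DCS, against 12330, 12697 and 12890 in HT vehicle. The 2 lowest values of HT DCS, 11333 and 11410, were those of replicates 5 and 6, replicate 2 at 12202 was just under the HT vehicle range, and the other 3 lay within it. Its log2 difference was -0.061, and without replicates 5 and 6 it was -0.016. Atp5f1, subunit b of the peripheral stalk, was among the higher genes, with 7249 ± 354 in HT DCS and 6993 ± 329 in HT vehicle, a log2 difference of 0.052 that was 0.029 without HT DCS replicate 3.

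**Figure D5:**
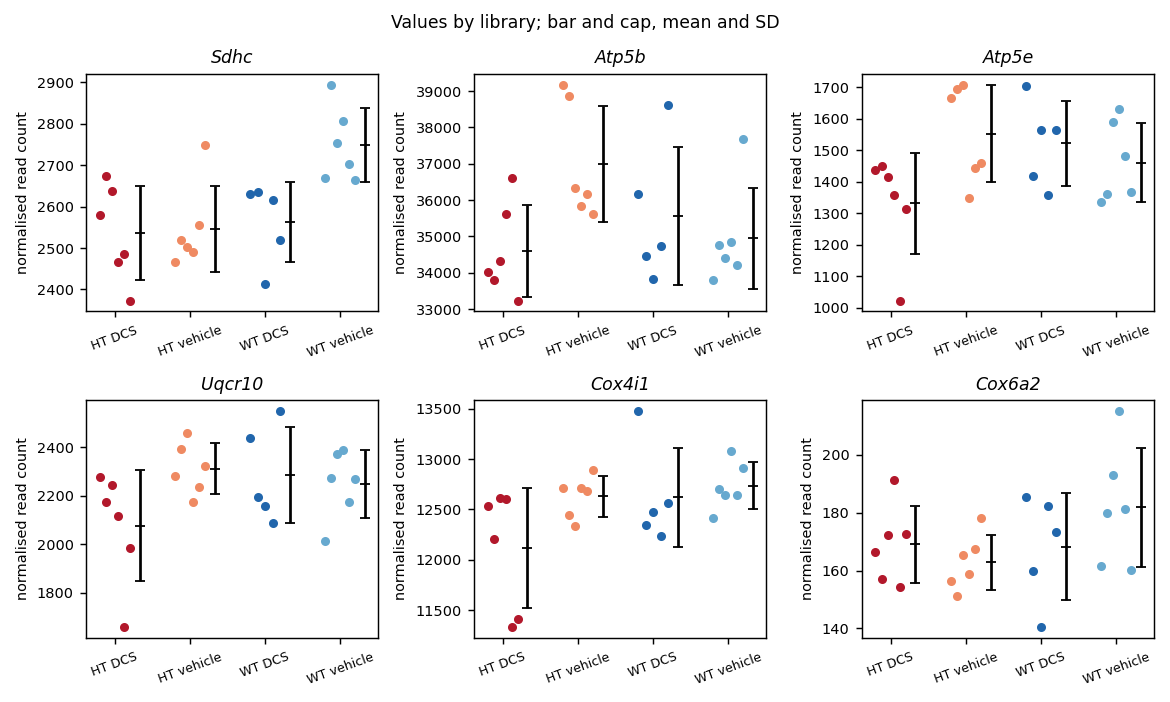
Normalised read count of 6 genes in each library by group, with the mean and SD as bar and caps beside the points; each vertical axis is linear and does not start at 0. The highest values of Sdhc are in WT vehicle, overlapping HT vehicle and HT DCS but not WT DCS, and the lowest points of Atp5e and Uqcr10 are from HT DCS replicate 5.

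Whether DCS acted differently in the genotypes was asked with the interaction, the DCS difference in HT minus that in WT. Of the 81 genes, 0 passed (limma, 0% of all genes tested) and 3 had an unadjusted p under 0.05 (4.38% of all genes), all negative: Atp5e (-0.28 ± 0.11, SE), Atp5b (-0.12 ± 0.049) and Ndufv1 (-0.085 ± 0.040), each with an adjusted p of 0.984. The median was -0.015, with 50 of 81 below 0 (50.7% of all genes). Without HT DCS replicates 5 and 6, 25 were below 0, and that of Atp5e was -0.19. The 95% interval of this interaction lay within 0.5 log2 units of 0 for 76 of the 81 genes and within 0.25 for 69.

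Treated HT mice were also set against untreated WT mice. In HT DCS against WT vehicle, 0 of the 81 genes passed in limma (0% of all genes tested), with a smallest adjusted p of 0.509, for Sdhc at a log2 difference of -0.12 ± 0.035 (SE). There were 9 lower genes at an unadjusted p under 0.05 and none higher, where 4.09% of all genes were lower and 3.09% higher at that level. Among them besides Sdhc, named after their values were seen, were Ndufa11, Ndufs7, Ndufb4, Ndufb8, Ndufa4, Uqcrc2 and Cox4i1. Of the 81, 66 were lower, where 50.5% of all genes were, and 42 were lower without HT DCS replicates 5 and 6.

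Averaged over the 81 genes, the deviation from the mean of each gene was -0.025 ± 0.070 in HT DCS (SD, n = 6), 0.00013 ± 0.039 in HT vehicle (n = 6), 0.013 ± 0.059 in WT DCS (n = 5) and 0.014 ± 0.028 in WT vehicle (n = 6). The differences between these groups are smaller than the spread within the DCS groups. Gene by gene, the median SD within groups was 0.075 log2 units for the 81 genes and 0.072 for other protein-coding genes with a mean of at least 1000. Genes with short transcripts had a median SD of 0.079 and those with longer ones 0.060. The steadiest over all libraries were Ndufs1 and Atp5a1, with SDs of 0.038 and 0.040, and the most variable Cox4i2 and Cox7a1, with 0.32 and 0.30, both of low level.

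The other genes of the pathway were followed as lists. Of 11 other respiratory chain genes, such as Cyc1 and Cycs, 0 passed in any comparison (limma). In HT vehicle against WT vehicle all 11 were lower (50.3% of all genes), with a median of -0.039, and 1 had an unadjusted p under 0.05 (4.22% of all genes). In HT DCS against WT DCS 8 of the 11 were lower (50.2%), and in HT DCS against HT vehicle 4 (50.7%). None of the 13 mitochondrially encoded mRNAs passed in limma in any of the 6 comparisons, and between 0 and 4 had an unadjusted p under 0.05. In HT vehicle against WT vehicle, 11 of the 13 were lower (50.3% of all genes), with a median of -0.11, and 4 of them had an unadjusted p under 0.05 (4.22% of all genes, in either direction). Among these, mt-Nd1, a core subunit of complex I, differed by -0.11 and mt-Cytb, the cytochrome b of complex III, by -0.11. In HT DCS against HT vehicle, 10 of the 13 were higher and 3 lower (50.7% of all genes were lower), with a median of 0.052. Among the 3 lower, mt-Co3 differed by -1.52 (limma unadjusted p = 0.033). In HT DCS against WT DCS, 8 of the 13 were lower and 5 higher (50.2% of all genes were lower), with a median of -0.016. There mt-Co3 differed by -0.85 and mt-Nd3 by -0.81 (limma unadjusted p = 0.24 and 0.031). Nuclear copies of mitochondrial sequence can exchange reads with such genes, and this was not checked for mt-Co3.

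Assembly factors, which build the complexes but are not part of them, were measured for 47 genes, and 0 passed in any comparison (limma; between 0 and 4 at an unadjusted p under 0.05). In HT DCS against WT DCS, 33 of 47 were lower (50.2% of all genes), with a median of -0.029, and in HT vehicle against WT vehicle 27 of 47 (50.3%), with a median of -0.014. Lyrm7, which helps insert the Rieske protein into complex III, had the smallest p of the list in HT vehicle against WT vehicle, at a log2 difference of 0.53. Of 17 regulators of mitochondrial genes, among them Nrf1, Gabpa, Yy1, Tfam and the PGC-1 family, 0 passed (limma; 1 or 2 in each comparison at an unadjusted p under 0.05). Esrra, the estrogen-related receptor alpha, had the smallest p in HT DCS against HT vehicle, at -0.12, and in HT DCS against WT DCS, at -0.098 (-0.060 without HT DCS replicates 5 and 6). Ppargc1b, a PGC-1 coactivator, had it in WT DCS against WT vehicle, at -0.29. In the other direction, Mterf1a had it in HT vehicle against WT vehicle, at 0.28, and in HT DCS against WT vehicle, at 0.42. The list as a whole was divided, with 9 higher and 8 lower both in HT DCS against HT vehicle (50.7% of all genes lower) and in HT DCS against WT DCS (50.2%).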

How the data were processed

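The authors deposited 1 table of 18848 genes by 23 libraries, holding decimal values that are never below 0, a signal of read counts scaled between libraries. A stranded mRNA kit was used, per the labels' protocols. Per the submitters' processing notes, the tools were DESeq2 1.26.0, Salmon 1.1.0 and R 3.6.2 and the build GRCm38, in roles not stated. Annotation release, filters and import options were not given in the sources used here. Library totals ran between 32.3 M and 33.5 M. Low values lay near multiples of a step of 0.87 to 1.28, for 61.7% to 79.8% of values within 0.15 steps, so whole reads were not recovered, and total over step gave the estimated depth. Scaling to like totals hides differences in total RNA. No column lacked a sample (0).

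Here limma 3.58.1 (R 4.3.3) was fitted to log2(value + 1) over all 23 libraries, 1 coefficient per group, with trend and robust moderation, and Benjamini-Hochberg adjustment over 17256 genes (mean of at least 10). Tests are two-sided at 0.05, and differences on this scale understate changes of low genes. The fit was tested on simulated data. Lengths are those of 1 principal transcript per gene in GENCODE M21, and copies were searched with blastn 2.17.0 (at least 95% identity, 200 bases and 50% of the shorter transcript). Genes were named where they passed, where they were among the 3 smallest p per direction in a comparison of 1 factor, where they had the highest or lowest level per kb in a complex, or as isoform pairs; 1 gene so named is not reported here. The members and lists were chosen with earlier results of these data known. Alternatives were other pseudocounts, filters, scalings and fits, a replicate block, and leaving out libraries, 2 sets of them chosen after seeing the data.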

Additional observations from a re-analysis of the deposited data

Results flagged for a closer look

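Of 144 groups of libraries examined for a value far from the others, 6 held one, and chance flags about 1 in 20 groups. Atp5e stood at 1023 normalised reads in HT DCS replicate 5, where the other HT DCS libraries had 1312 to 1448. HT vehicle replicate 6 was high for Sdhc, at 2749 against 2466 to 2555 in the rest of its group. Its mean deviation over the 81 genes, 0.075, was apart from the -0.040 to -0.0052 of the other HT vehicle libraries. WT vehicle replicate 6 was high for Atp5b, at 37678 against 33796 to 34833. Cox4i1 reached 13475 in WT DCS replicate 1, where its group otherwise had 12232 to 12567. Atp5s reached 358 in HT vehicle replicate 5, with 327 to 332 in the others.

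Ndufv1, the NADH-binding subunit of complex I, moved in opposite directions with DCS in the genotypes: all 6 HT DCS libraries lay below the HT vehicle mean, with a log2 difference of -0.056, and all 5 WT DCS libraries above the WT vehicle mean, with a difference of 0.029. The WT side rests on WT vehicle replicate 2, at 4045 where the other WT vehicle libraries had 4292 to 4507, and without it the difference was 0.0080. The difference between these was tested as the interaction, -0.085 ± 0.040 (SE; limma adjusted p = 0.984), and did not pass. Without WT vehicle replicate 2 it was -0.064.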

How the results depend on the processing

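Over 36 alternative settings, the genes named for a small p kept the sign found with all libraries, in all 863 values. They were picked as the 3 smallest p per direction in these same data, so a kept sign was likely beforehand. Other differences did turn: that of Sdhc in HT DCS against HT vehicle, -0.0062 with all libraries, was 0.013 without HT DCS replicate 6. Of 215 median differences over the 81 genes, 10 had the other sign. Of these 10, 4 came on leaving out 1 library, and the other 6 on leaving out HT DCS replicates 5 and 6, with or without WT DCS replicate 1. These replicates were picked for their levels of the same 81 genes, so such a turn was likely beforehand. The medians are small, at most 0.041 in size with all libraries, so a change within the spread of 0.047 between libraries can turn them. Only 2 moved by more than that spread, both without HT DCS replicates 5 and 6 and WT DCS replicate 1, where the median difference of the 81 genes was 0.025 in HT DCS against WT DCS (-0.034 with all libraries) and 0.045 in the interaction (-0.015). The number of genes past the threshold was 0 in every comparison and setting. Leaving out 1 library at a time, the medians ran between -0.027 and -0.0032 (HT vehicle against WT vehicle), -0.046 and -0.012 (HT DCS against WT DCS), -0.023 and 0.0030 (WT DCS against WT vehicle), -0.038 and -0.0073 (HT DCS against HT vehicle), -0.059 and -0.024 (HT DCS against WT vehicle) and -0.032 and 0.0078 (interaction). Without HT vehicle replicate 6, 65 of the 81 genes were lower in HT vehicle, and 55 with it. Deviations of libraries with the same replicate number correlated by 0.027 on average (33 pairs, -0.068 to 0.30). Those of libraries with other numbers correlated by -0.0053 (165 pairs, -0.17 to 0.15). The fifth WT DCS library carries number 5 in its title and 6 in its description. With the description number the same-number correlation was 0.024 on average (-0.11 to 0.30). Myelin marker sums did split by number, and in each group replicates 1 to 3 were above all the later ones. They were 421671 to 491427 against 316743 to 383712 in HT DCS, and 496592 to 508412 against 443952 to 483035 in WT vehicle. A term for replicates 1 to 3 against 4 to 6 was among the settings. With the replicate block the median in HT DCS against WT DCS was -0.033 with the title numbers and -0.023 with the description numbers, and 0 genes passed with both. The estimated depth, 25.5 M to 37.5 M reads, limits the low isoforms: 4 of the 81 genes had a mean under 100.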
